A study of Mus musculus with 3 samples.

Results

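The connective tissue fibroblasts of the Cxcl12-creER P6 library were 56 of its 1131 kept barcodes, or 4.95% (exact binomial 95% interval 3.76 to 6.38), in a series of 15912 barcodes over 3 libraries. They were the barcodes with at least 500 genes, at most 15% mitochondrial UMIs (unique molecular identifiers, each standing for 1 counted transcript) and at least 2 summed UMIs of Pi16, Dpt and Clec3b. They also had fewer than 1000 UMIs of the enamel genes Amelx and Ambn per 10000 and no UMI of Ptprc, Pecam1 or Epcam, which mark leukocytes, endothelium and epithelium. Because measured values chose the cells, the levels of Pi16, Dpt and Clec3b, and every difference from cells outside the rule in the same library, are given as a description. Of the 1691 barcodes deposited, 536 fell to the gene minimum and 24 to the mitochondrial limit, 57 of the rest reached the marker minimum, and 1 of those was left out for a Ptprc UMI.

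The cells came from mandibular molars whose pulp and periodontium had been digested with enzymes, and they were sorted by fluorescence, with about 10000 cells loaded per library. This library held tdTomato-positive cells of Cxcl12-creER; R26R(tdTomato/+) mice at postnatal day 6, in which a tamoxifen-inducible recombinase driven by Cxcl12 switches on the red reporter tdTomato. A second library of the same age came from Cxcl12-GFP/+ mice and was sorted for GFP, and a library of day 25 (P25) held cells of Col1a1-GFP; Cxcl12-creER; R26R(tdTomato/+) mice sorted for GFP, tdTomato or both. The sources used here give neither the day of tamoxifen nor the number of animals pooled. Each group was 1 library, so no value has a replicate error and there is no test across samples. All intervals are 95% and cover counting error only. Between the P6 and P25 libraries age, alleles, sorting gate, depth, Cell Ranger version and gene reference (32286 and 28006 features) differed together, and their parts cannot be told apart.

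Fibroblasts that express Pi16, Dpt, Clec3b and Ly6a are found in the loose connective tissue and around the vessels of many organs, where they are often called universal or adventitial fibroblasts. Pi16 encodes a secreted peptidase inhibitor, Dpt the collagen-binding protein dermatopontin, Clec3b the plasminogen-binding protein tetranectin, and Ly6a the surface antigen Sca-1. Cxcl12 encodes a chemokine of stromal cells that holds blood progenitors and guides migrating cells through the receptor Cxcr4. In GRCm38 the genes lie on chromosome 17 from 29317680 to 29330593 (Pi16), chromosome 1 from 164796644 to 164824266 (Dpt), chromosome 9 from 123150946 to 123157432 (Clec3b), chromosome 15 from 74994877 to 74998031 (Ly6a) and chromosome 6 from 117168535 to 117181367 (Cxcl12). All are protein-coding, and all but Ly6a are on the plus strand.

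Depth was low and uneven. Kept barcodes held a median of 1470 UMIs in this library, against 8307 in Cxcl12-GFP P6 and 15089 at P25. The 56 fibroblasts held 374576 UMIs in all, with a median of 1966.5 per barcode and a range of 738 to 43929. The 10 deepest, from 11625 UMIs up, carried 73.8% of that total, and the next barcode had 6021. Levels below are CPM, a gene's UMIs summed over a group and scaled to the group's total, so they lean towards these deep barcodes. No fibroblast barcode occurred in another library.

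**Figure D1:**
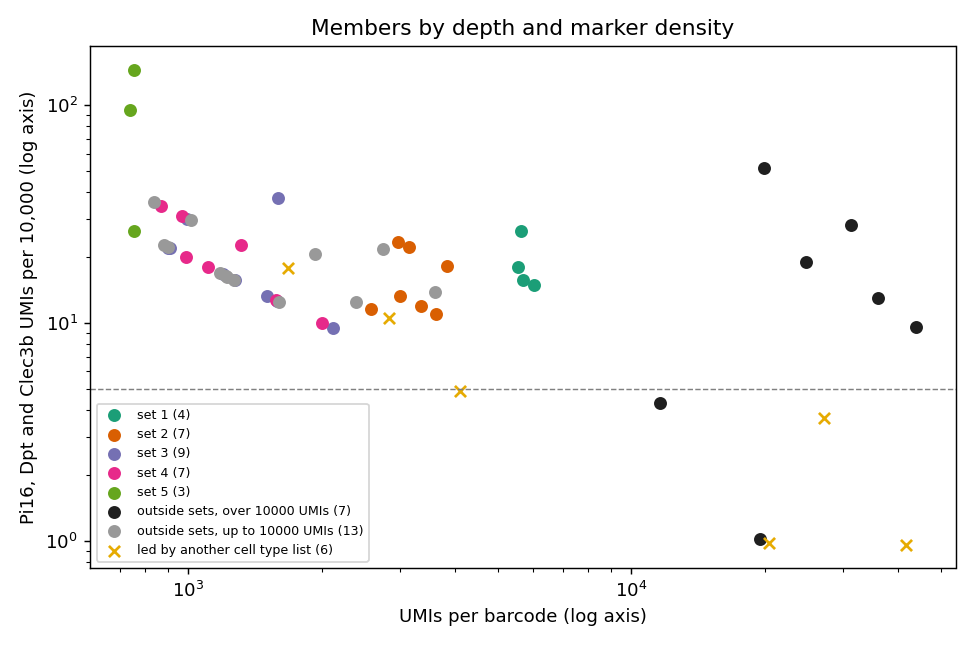
Each point is 1 of the 56 fibroblast barcodes, with its UMIs on the x axis and its Pi16, Dpt and Clec3b UMIs per 10000 on the y axis, both on log axes, coloured by the sets and classes described in the text. The 10 barcodes above 11625 UMIs stand apart from the other 46, which end at 6021.

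The markers were sparse, and they were not all carried by the same barcodes. Clec3b had a UMI in 49 of the 56 barcodes, Pi16 in 20 and Dpt in 19. Only Clec3b was seen in 22 barcodes, only Dpt in 5 and only Pi16 in 1, while 24 had 2 of the 3 genes and 4 had all 3. Ly6a, which the rule did not use, had a UMI in 25 of 56 fibroblasts (44.6%, 31.3 to 58.5) and in 14 of the 671 other collagen-expressing cells (2.09%, 1.15 to 3.48). Those other cells passed the same limits, had no UMI of Pi16, Dpt or Clec3b and had at least 50 UMIs of Col1a1, Col1a2 and Col3a1 per 10000. After each cell was thinned to 1000 UMIs, which left out 12 fibroblasts and 163 others, Ly6a stood at 11 of 44 (25.0%) against 5 of 508 (0.984%). In 40 epithelial barcodes it had no UMI (upper bound 8.81%, median depth 1288.5 UMIs), and it had 1 in 90 ameloblast-type barcodes (median depth 4612 UMIs).

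Barcodes just below the marker minimum carried fibroblast genes too. With a summed marker count of 1, outside the rule, there were 41 barcodes, of which 26.8% had Ly6a and 39.0% had Mfap5, a microfibril gene of adventitial fibroblasts. With a count of 2, just inside, there were 22, of which 31.8% had Ly6a and 59.1% had Mfap5. With no marker UMI the shares were 2.11% and 4.88% of 901 barcodes.

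For 6 of the 56 barcodes the data went against the fibroblast label: another cell type list had more UMIs in them than the 4 fibroblast markers did, counting only lists that fewer than 5 of the 56 carried at 2 UMIs or more. These 6 held 97945 UMIs, 26.1% of the total. The barcodes of 41618 and 27221 UMIs had 20 and 12 UMIs of Myf5, a myogenic factor, 4 and 10 of Dpt, and none of Col1a1, Dcn, Pi16 or Clec3b. The barcodes of 20479 and 2838 UMIs had 116 and 39 UMIs of Tnmd and 50 and 8 of Kera, both tendon genes. A further barcode of 4108 UMIs had 5 tendon-list UMIs against 2 of Dpt. It had only 1 UMI of Tnmd, and 14 of Dcn, 11 of Lum, 61 of Col1a1 and 72 of Col3a1, so its call rests on few UMIs. The last, of 1681 UMIs, had 79 of Prss34 and 36 of Mcpt8, basophil proteases, and no collagen UMI of Col1a1 or Col3a1. None of the 6 had a UMI of Ly6a or Mfap5. Results are given with and without them, and the other 50 are called own-label fibroblasts. The osteoblast or cementoblast list could not flag a barcode, since 12 of the 56 carried it at 2 UMIs or more. A barcode of 2117 UMIs had 3 UMIs of that list against 2 of the fibroblast markers and stayed among the 50. Of these 50, one barcode of 19562 UMIs, noticed after its values were seen, had 108 UMIs of Smoc2 and 9 of Dlx3 but none of Dcn, Mfap5 or Clec3b and 2 of Dpt.

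Markers of other cell types differed widely in the 50 own-label barcodes. No chondrocyte marker was detected (0 of 6), and of the epithelial, endothelial and skeletal muscle lists 1 of 8, 2 of 8 and 1 of 8 genes were seen, with at most 5 UMIs per list. These low counts follow in part from the choice of cells. The rule allowed no UMI of Pecam1 or Epcam, and barcodes led by any of these lists had been left out. In all 56 the skeletal muscle list had 71 UMIs, against 2 in the 50, and the chondrocyte list had 2 against 0. Osteoblast or cementoblast markers came to 1.37 UMIs per 10000, against 18.7 in the other collagen-expressing cells. Adipocyte or marrow stroma markers had a UMI in 28 of the 50, at 6.72 per 10000 against 1.41, with 170 of their 186 UMIs from the lipase gene Lpl and none from Adipoq, Plin1 or Cidec. Mural markers had a UMI in 15 of the 50 (30%), at 2.02 per 10000 against 6.61, with Myh11 and Des at 0. Schwann or glia markers also had a UMI in 15 (30%, against 15.6% of the other cells), at 1.12 per 10000 against 9.44, with Sox10 and Mbp at 0. The part of these cell types in the values below was not tested. The enamel gene Amelx had a UMI in 43 of the 56 fibroblasts (76.8%) and in 79.7% of the other cells, at 531 and 688 CPM, while ameloblast-type barcodes held 479675 CPM. The part of free Amelx RNA in other values was not tested.

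Many barcodes could be grouped into sets with closely agreeing counts. A chi-square per degree of freedom near 1 means that 2 barcodes differ by no more than the drawing of UMIs from a shared profile, and 30 of the 56 fibroblasts fell into 5 sets (of 4, 7, 9, 7 and 3 barcodes) whose median values were 0.987 to 1.10. Pairs outside the sets had medians of 1.98 to 4.14, rising with depth. The sets were cut on this same value, at an average of at most 1.2, so these medians follow from the grouping and do not test it. In-set pairs reached 1.51 (set 4). Below 1300 UMIs the lowest pair outside (1.06) lay under the highest inside (1.27), so the sets of shallow barcodes are less sure. Barcodes whose depths differed more than 3-fold were not joined. Depths ran from 5558 to 6021 UMIs in set 1, 900 to 2117 in set 3 and 738 to 756 in set 5. Counting each set once left 31 profiles, 25 of them own-label. Results with each set counted once use all 31, so they include the 6 barcodes led by another list. Sets 3 and 4 extended beyond the rule, since 29 and 16 barcodes that were not fibroblasts by the rule grouped with 8 and 7 of their barcodes. The same held for 543 of the 671 other collagen-expressing cells (80.9%), which made 203 profiles. Among 400 cells per library thinned to 2000 UMIs, 39.8% of this library had a nearest neighbour at or below 1, against 23.8% in Cxcl12-GFP P6 and 0.75% at P25. The 400 were drawn from 404 cells of that depth in this library, 7517 in Cxcl12-GFP P6 and 5557 at P25. Most possible neighbours were thus left out in the larger libraries, so these shares cannot be compared between libraries. Shares of barcodes and pooled levels below count every barcode of a set unless stated, so their intervals are too narrow wherever a set is a single profile.

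The sets are described by their leading genes, ranked against the other own-label fibroblasts, and by further genes picked after their values were seen. Since the sets were formed over all genes, differences between them are a description. Set 1 held all 121 Ccl7 UMIs of the fibroblasts, with 22 to 36 in each of its 4 barcodes. It also held 41 of the 53 own-label Cxcl1 UMIs, 14 of 19 Ccl11 UMIs and 154 of Mgp, an inhibitor of calcification. Ccl7, Ccl11 and Cxcl1 recruit monocytes, eosinophils and neutrophils, and set 1 carried 100%, 73.7% and 66.1% of the fibroblasts' UMIs of these genes. Set 2 had the highest Cxcl12 (2262 CPM, 1684 to 2974), with 6 to 9 UMIs in each of its 7 barcodes. Phlda1, Lpar4 and Phex led it with Cxcl12, at 8, 12 and 8 UMIs. Among further genes it held 106 UMIs of the Notch-family ligand gene Dlk1, 28 of Gap43 and 18 of Ly6a.

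Set 3 had no Cxcl12 UMI in its 9 barcodes (0 CPM, upper bound 306). Its leading genes were the bone-related Smpd3 and Ibsp, and 121 UMIs of the growth factor gene Ptn were counted in it. It held 9 UMIs of Ly6a and 33 of Lum but only 2 each of Mfap5 and Cd34, so the fibroblast label is uncertain for it. Set 4 was marked by elastin: Eln had 123 UMIs, 10 to 24 in each of 7 barcodes, or 13924 CPM against 1187 in the other own-label fibroblasts (11.7-fold, 9.44 to 14.5), with no UMI of Pi16, Dpt or Ly6a. It met the rule through Clec3b alone (17 UMIs), with 15 UMIs of Mfap5 and 1 of Lum, so its fibroblast label is uncertain too. Set 5, of 3 shallow barcodes and 2249 UMIs in all, was led by adventitial genes, with 11 UMIs each of Pi16 and Ly6a (4891 CPM), 8 of Ccn3 and 5 of Sema3c.

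Outside the sets, 7 deep own-label barcodes (11625 to 43929 UMIs) held 187221 UMIs and led in Col8a1, Meg3 and Igf1, while 13 shallow ones (838 to 3596 UMIs) had no leading gene above 6 UMIs. Clustering of the 56 barcodes without the rule's genes and Cxcl12 matched the sets in part. At resolution 1 it gave 5 clusters of 14, 12, 11, 11 and 8 barcodes, which split all 5 sets and mixed barcodes of sets 1, 2 and 4. At resolution 0.5 it gave 3 clusters of 26, 18 and 12 barcodes, the first with all of sets 1, 2 and 4 and 1 barcode of set 5, and the last with 8 of the 9 barcodes of set 3.

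**Figure D2:**
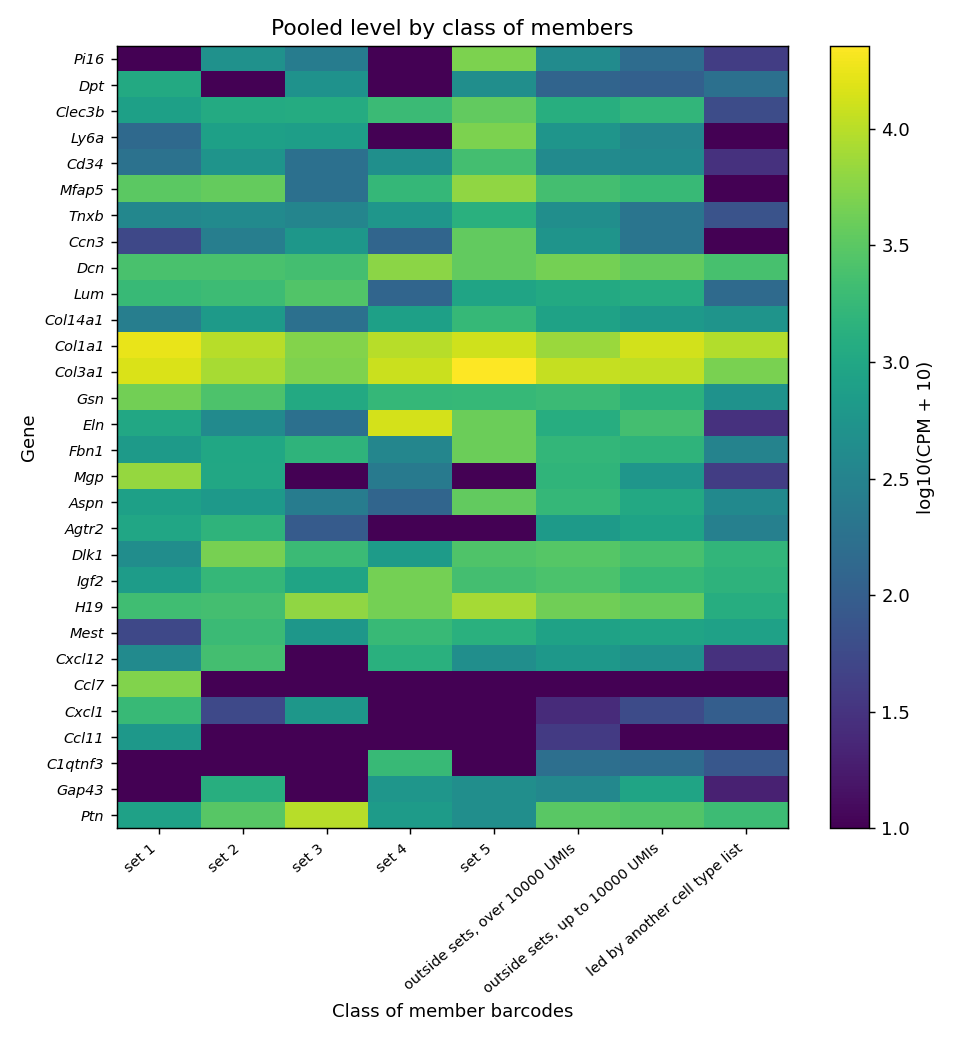
Colour gives the pooled level as log10(CPM + 10) for named genes (y axis) in 8 classes of the 56 fibroblast barcodes (x axis): the 5 agreeing sets, the 7 and 13 barcodes outside sets above and up to 10000 UMIs, and the 6 led by another cell type list. Ccl7 is seen in set 1 alone, Eln is highest in set 4, and Mfap5 and Ly6a are at 0 in the 6 barcodes led by another list.

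Cxcl12, the gene behind the reporter, was detected in 31 of the 56 fibroblasts (55.4%, 41.5 to 68.7), at 531 CPM (460 to 610). Per 10000 UMIs it ran from 0 through a median of 1.73 to 30.3. The other collagen-expressing cells held 284 CPM (265 to 304), with a UMI in 270 of 671 (40.2%), so the fibroblast level was 1.87-fold higher (1.59 to 2.18). Without the 6 barcodes led by another list the level was 712 CPM (616 to 819) and the ratio 2.51. With the deepest barcode of each set alone, the 6 included, the level was 424 CPM. The 6 held 97945 of the 320705 UMIs in that setting and 2 of its Cxcl12 UMIs.

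Cxcl12 was uneven among the fibroblasts. Set 2 and set 4 held 2262 and 1358 CPM, set 1 held 393, the deep barcodes outside sets held 609, and the 6 barcodes led by another list held 20.4. Set 3 had none (upper bound 306 CPM). The sets were formed over all genes, Cxcl12 included, so their differences in Cxcl12 are a description. The background was far lower: Cxcl12 had 1 UMI in 40 epithelial barcodes (2.50%, median depth 1288.5 UMIs) and 4 in 90 ameloblast-type barcodes (4.44%, median depth 4612). At 1000 UMIs per cell the shares were 18 of 44 fibroblasts (40.9%, 26.3 to 56.8), 131 of 508 other cells (25.8%, 22 to 29.8), and 0 of 30 epithelial and 0 of 90 ameloblast-type barcodes. The reporter transcript tdTomato had 13 UMIs, in 10 of the 56 fibroblasts.

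**Figure D3:**
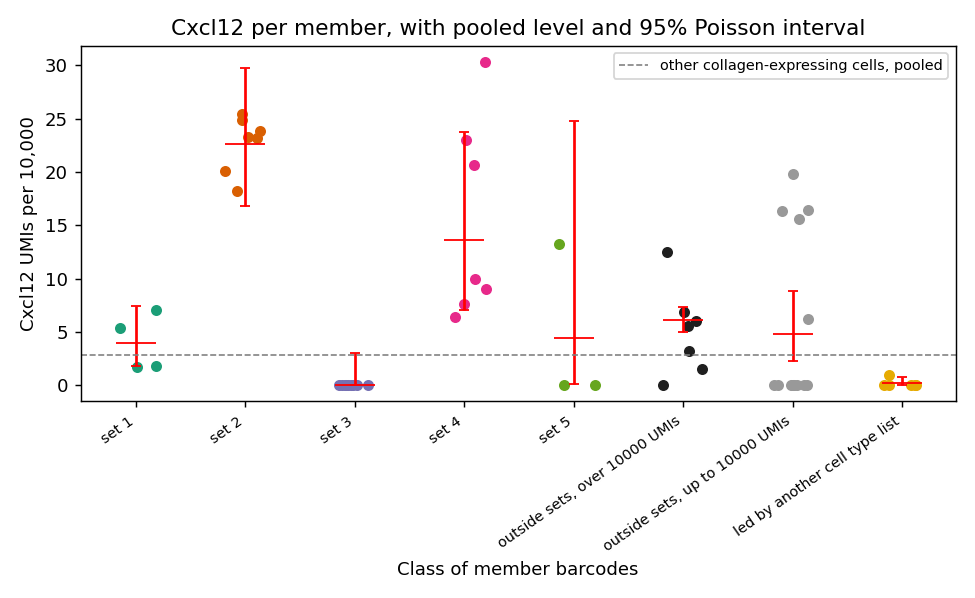
Points are Cxcl12 UMIs per 10000 (y axis) in each of the 56 fibroblast barcodes, by class (x axis), and red marks give each class's pooled level with its 95% Poisson interval. The 7 barcodes of set 2 lie between 18.2 and 25.4 per 10000, the 9 of set 3 lie at 0, and the dashed line gives the other collagen-expressing cells (284 CPM).

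The 56 fibroblasts differed from the other collagen-expressing cells across many genes. A gene was tested where its higher group reached 50 CPM and 20 UMIs, and of 3555 such genes 284 were higher by 2-fold or more (7.99%) and 230 lower (6.47%). Since the rule used these cells, nothing is read from those shares. Beside the rule's own genes, the ranking by log2 ratio on CPM plus 10 was led by Mfap5, at 1706 against 23.9 CPM (71.3-fold, 55.8 to 92.5), and Tnxb, the matrix glycoprotein tenascin-X, at 328 against 2.02 CPM (163-fold, 72.6 to 451). Ccn3, a matricellular gene, was 76.8-fold higher, the angiotensin receptor gene Agtr2 46.9-fold and Ly6a 32.6-fold (22.6 to 48.0). Dlk1 was 31.6-fold higher, Mgp 25.2-fold, the kinase gene Nrk 24.6-fold and the fibril-associated collagen gene Col14a1 23.7-fold. A single barcode held 83 of the 126 Ccn3 UMIs of the fibroblasts, and the barcode of 31361 UMIs held 77 of their 152 Ly6a UMIs. The intervals do not cover this unevenness.

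Genes of mineralising cells made up most of the lowest. Spp1, encoding osteopontin, had 1 UMI in the fibroblasts against 1750 in the other cells, a ratio of 221 with an interval of 39.6 to 8724, and Bglap (osteocalcin) and Alpl (alkaline phosphatase) also had 1 each. Mmp13 was 64.5-fold lower, Omd 40.8-fold, the bone sialoprotein gene Ibsp 25.0-fold and the Wnt inhibitor gene Wif1 18.2-fold (93.4 against 1699 CPM). Moxd1 had no UMI and was at least 15.9-fold lower.

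By gene group, the adventitial list had 8 tested genes, of which 7 were higher and 1 lower, with a median log2 ratio of 2.75, where that of all tested genes was -0.00. Cd55, a complement-regulating surface protein, was 23.8-fold higher, Sema3c 10.9-fold and Creb5 12.2-fold. Limch1 was 2.43-fold lower, and Dpp4, often used to sort these cells, had only 2 UMIs. Ly6c1 was 66.8-fold higher, but reads of Ly6c1 may be shared with its near-identical copy Ly6c2.

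Of 18 tested pan-fibroblast genes 11 were higher and 2 lower, with Cd34 at 28.4-fold, Gsn (gelsolin) at 5.27-fold and Cd248 at 2.63-fold higher. The platelet-derived growth factor receptor genes differed: Pdgfra stood at 192 against 166 CPM (ratio 1.16, 0.893 to 1.49), and Pdgfrb was 3.14-fold lower. Among transcription factors of connective tissue 6 of 20 were higher, led by Ebf2 (43.0-fold), Meox2 (24.5-fold) and Osr1 (14.7-fold), and 2 were lower. Of 9 tested transcription factors of dental mesenchyme none was higher and 6 were lower, with Runx2, the regulator of osteoblast fate, 21.4-fold lower and Sp7 12-fold. Msx1 (214 against 163 CPM) and Barx1 (275 against 326 CPM), dental homeobox genes, differed less than the 2-fold limit.

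Matrix genes were higher in part. Of 16 tested elastic fibre and microfibril genes 9 were higher and none lower, with Eln at 9.15-fold, Fbn1 (fibrillin-1) at 5.45-fold, the crosslinking enzyme gene Loxl1 at 4.26-fold and Fbln5 at 4.02-fold. The 7 barcodes of set 4 held 27.8% of the fibroblasts' Eln UMIs. Of 17 tested collagen genes 8 were higher and 1, Col11a1, was lower, with a median log2 ratio of 0.85. Col3a1 was 2.01-fold higher and Col1a1 stood at 8911 against 11771 CPM. Of the small proteoglycans Dcn (decorin) was 4.28-fold and Aspn (asporin) 9.70-fold higher.

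Signalling genes included 5 of 7 tested chemokine and cytokine genes that were higher, among them Kitl, the ligand of Kit, at 19.6-fold, Il33 at 15.2-fold, Cxcl1 at 11.2-fold and Ccl7 at 87.2-fold, the latter from set 1 alone. Cxcl14 was 23.7-fold lower. In the insulin-like growth factor group 5 of 9 were higher and 1 lower, with the binding protein gene Igfbp6 at 12.7-fold and Igf1 at 2.24-fold. Of 12 tested Wnt genes, Sfrp2, a secreted Wnt modulator, was higher (2.94-fold) and 6 were lower. Imprinted genes, which are expressed from 1 parental copy and mostly act on fetal and early postnatal growth, were higher in 12 of 14 tested and lower in none. Plagl1 was 7.05-fold higher, Zim1 6.42-fold, Igf2 4.50-fold and H19 3.14-fold.

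Leaving out the 6 barcodes led by another list gave 286 genes higher (9.15%) and 271 lower (8.67%) of 3127. Of the tested genes 7 of 8 adventitial, 12 of 14 imprinted and 9 of 16 elastic fibre genes were then higher, and 4 of 9 dental factors were lower. The cell cycle counts went from 1 higher and 3 lower of 14 to none higher and 9 lower of 12. Counting each agreeing set once in both groups gave 271 higher (8.02%) and 253 lower (7.49%) of 3378. Some folds were then larger, with Dlk1 at 86.6-fold, Ccn3 at 153-fold and Agtr2 at 80.3-fold, while Ccl7 stood at 21.3-fold. The barcode with 83 Ccn3 UMIs was still counted there. The 50 barcodes with at least 5 marker UMIs per 10000 gave 295 higher (9.76%) and 312 lower (10.3%) of 3024. Mki67, a marker of cycling cells, had 33 UMIs in the 56 barcodes and none in the 50 own-label ones.

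**Figure D4:**
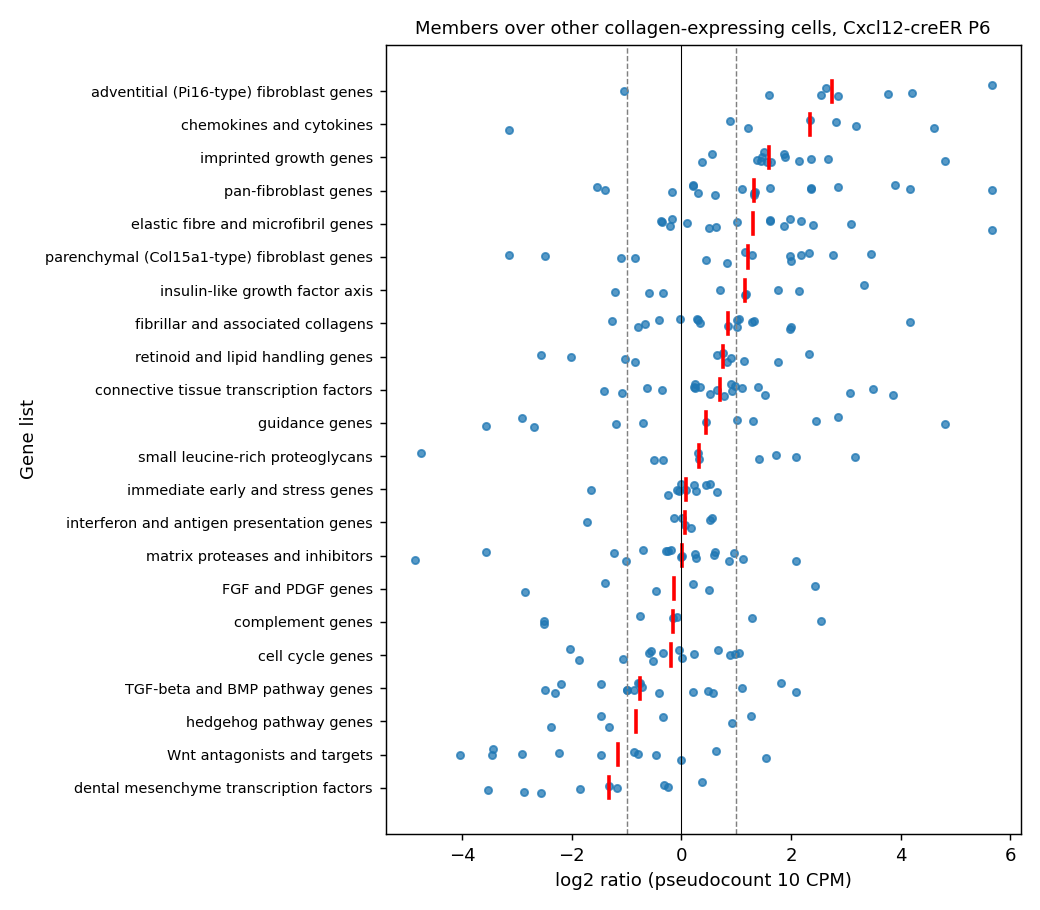
Points are log2 ratios (x axis, pseudocount 10 CPM) of the fibroblasts over other collagen-expressing cells for the tested genes of each gene list (y axis), with the median marked. The adventitial, chemokine and imprinted lists have medians of 2.75, 2.35 and 1.60, and the dental factors have a median of -1.32.

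The same rule found 370 fibroblasts among 5657 kept cells at P25 (6.54%, 5.91 to 7.22). Leaving out barcodes led by another list left 202 of the 370, and 50 of the 56 at P6. Only lists that few of the P6 fibroblasts carried were used, so the osteoblast or cementoblast list could not flag a P25 cell. Among the 202, Mmp13 had a UMI in 56.4% and Alpl in 54.0%, so the fibroblast label is uncertain for them too. Leaving out barcodes with 2 UMIs of another list left 42 at P25 and 45 at P6. Many of the 370 thus did not pass the label check used at P6, and the shared-rule ratios include them. The 370 cells were deeper, with a median of 16192 UMIs, so 2 marker UMIs are a weaker demand there. With at least 5 marker UMIs per 10000 as well, 119 cells remained at P25 (2.10%) and 50 at P6 (4.42%). In shallow barcodes 2 marker UMIs already meet this limit, and deeper barcodes need more. The P6 to P25 comparison is therefore given for both choices. For the lists and many of the genes the same ratio in the other collagen-expressing cells (671 at P6, 3417 at P25) stands beside it. Of 3503 genes tested over the 56 and 370 cells, 364 were higher at P6 (10.4%) and 363 lower (10.4%). Over the marker-dense 50 and 119 cells, 183 of 2896 were higher (6.32%) and 353 lower (12.2%). Without barcodes led by another list (50 and 202 cells), 247 of 2976 were higher (8.3%) and 333 lower (11.2%). With each set counted once the counts were 360 (11.1%) and 386 (11.9%) of 3252. In the other cells 261 of 3316 were higher (7.87%) and 207 lower (6.24%).

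Of the 22 gene lists, imprinted growth genes had the largest share of tested genes higher at P6. In the fibroblasts 12 of 13 tested were higher and none lower, with a median log2 ratio of 2.92, and the marker-dense cells gave 12 of 13 and 2.74. In the other collagen-expressing cells 8 of 12 were higher, with a median of 1.30, and the medians of all tested genes were 0.12, -0.08 and 0.17. Dlk1 stood at 2435 CPM at P6, with a UMI in 83.9% of cells, and at 4.98 CPM at P25, with a UMI in 5.68% (489-fold, 347 to 710). That ratio was 338 in the marker-dense cells and 4.97 in the other cells. Igf2, the fetal growth factor gene, was 25.4-fold higher at P6 (19 marker-dense, 4.27 in others), Zim1 36.9-fold (27.1, 9.43), Mest 10.2-fold (11.7, 3.68) and Peg3 8.44-fold (8.57, 2.47). H19, the noncoding RNA beside Igf2, stood at 3284 against 21.8 CPM (150-fold, 127 to 180), with ratios of 53.6 marker-dense and 45.0 in the other cells. Sgce was the exception, at 98.8 and 101 CPM. Peg10, an imprinted gene outside the list, was 15.3-fold higher.

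Other genes with large P6 ratios were Nrk (68.2-fold, 15.5 marker-dense), Agtr2 (29.7-fold, 9.08 marker-dense, 50.4 in the other cells from low levels), Ccn3 (15-fold, 6.77 marker-dense) and Gap43, a growth-cone protein gene (12.9-fold, 4.73 marker-dense). As log2 ratios on CPM plus 10, Nrk, Ccn3 and Gap43 stood at 4.67, 3.42 and 3.25 in the fibroblasts. In the other cells they were also higher at P6, at 1.21, 0.29 and 1.45, with Nrk from a low level (15.8 CPM at P6). Fbn2, the fibrillin of growing tissue, was 16.4-fold higher at P6 and 29.1-fold in the marker-dense cells, against 3.94-fold in the other cells. Eln was 8.03-fold higher, but 3.16-fold in the marker-dense cells, which is close to the 2.94-fold of the other cells. The elastic fibre list followed the choice of cells, with 9 of 16 higher over all fibroblasts, 6 of 16 without the barcodes led by another list and 3 of 16 over the marker-dense ones. Of the transcription factors, Ebf2 was 5.63-fold (2.37 marker-dense) and Meox2 8.24-fold (3.31) higher at P6.

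Cxcl12 was 3.03-fold higher in P6 fibroblasts than at P25 (2.59 to 3.52), at 531 against 175 CPM, although 64.6% of the deeper P25 cells had a UMI. The ratio was 2.75 in the marker-dense cells and 1.36 in the other collagen-expressing cells. Marker levels themselves moved with the choice of cells. Ly6a stood at 406 and 451 CPM under the shared rule and was 2.36-fold lower at P6 in the marker-dense cells, at 604 against 1428 CPM. Pi16 was 286 and 262 CPM, or 424 and 1086 CPM in marker-dense cells.

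The genes lowest at P6 were Mmp13 (8.01 against 1069 CPM), Alpl (2.67 against 630), Omd (18.7 against 596), S100a4 (16 against 435), Rgs3 (26.7 against 513) and Wif1 (93.4 against 1241). Tnfaip2 and Fgfr3 had no UMI and were at least 15.6-fold and 13.8-fold lower. All were also lower at P6 in the other cells, with log2 ratios of -0.25 (Omd) to -1.70 (Rgs3), against -3.59 (Fgfr3) to -5.90 (Mmp13) in the fibroblasts. Without barcodes led by another list, Pcolce2, Col11a1, Aqp1 and Fmod took the places of Omd, Rgs3, Wif1 and Fgfr3 among the 8 lowest. Alpl, Mmp13 and Bglap are genes of mineralising cells, and in the P25 cells chosen by the shared rule Bglap had a UMI in 88.9%, at 2932 CPM. The part of free RNA from mineralising cells in these values was not tested. S100a4 remained 25.1-fold lower among marker-dense cells and Mmp13 127-fold.

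Several lists had more genes lower than higher at P6. Of 14 tested immediate early and stress genes 12 were lower and none higher (15 of 15 marker-dense), with Fos at 1367 against 3690 CPM, Jun 2.36-fold and Egr1 2.05-fold lower. Since 13 of 14 were also lower in the other collagen-expressing cells, this group moved in both cell groups between the libraries. Of 19 matrix proteases and inhibitors 14 were lower and none higher (12 of 21 marker-dense, 10 of 19 lower in the other cells), with Timp1 12-fold and Mmp14 4.20-fold lower. Interferon and antigen presentation genes were lower in 6 of 10 and higher in none (9 of 10 marker-dense, 5 of 8 in the other cells), and the class I gene H2-D1 was 7.44-fold lower. Of 6 tested complement genes 3 were lower and 1, Cd55, was higher, with 6 of 7 lower among marker-dense cells and 2 of 6 in the other cells. The central complement gene C3 had no UMI at P6 and 61.5 CPM at P25, or 247 CPM in the marker-dense P25 cells, which puts it at least 20.6-fold lower there. Cell cycle genes were higher at P6 in 7 of 11, against 9 of 12 in the other cells. The count was 1 of 4 without the barcodes led by another list, 3 of 4 marker-dense and 8 of 11 with each set counted once.

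**Figure D5:**
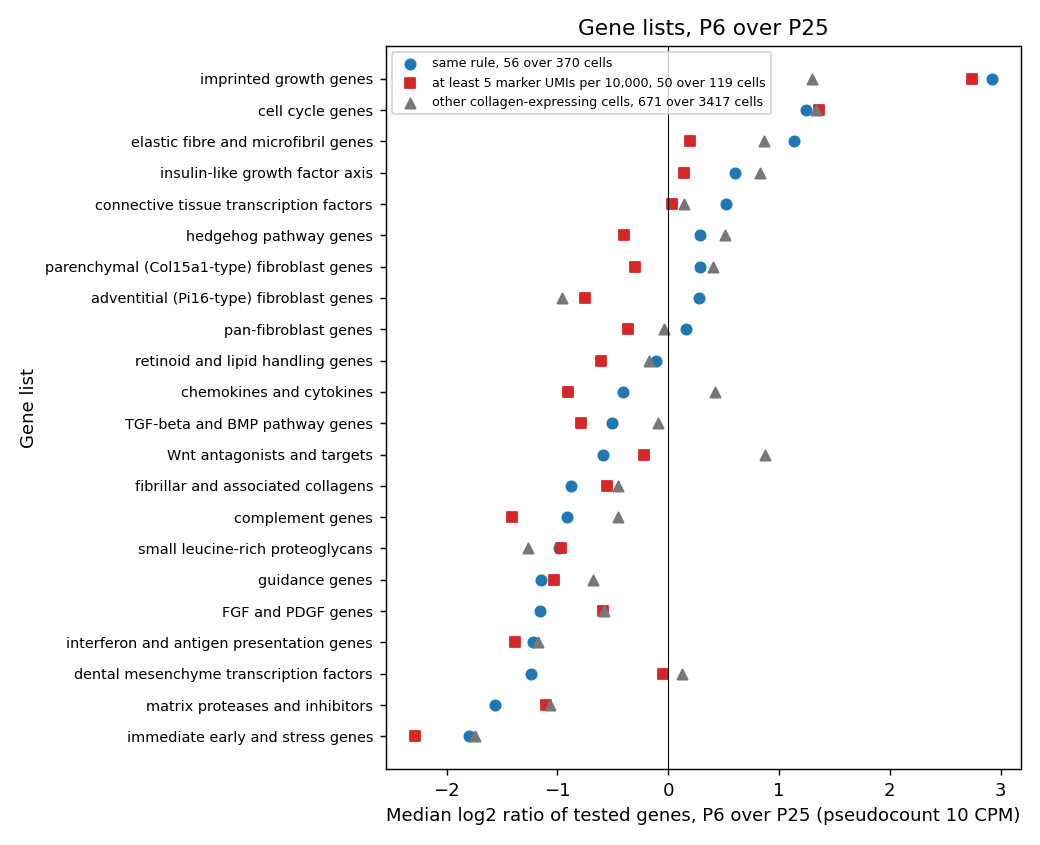
Each symbol is the median log2 ratio of a gene list's tested genes, P6 over P25 (x axis, pseudocount 10 CPM), for the fibroblasts by the shared rule (circles), marker-dense fibroblasts (squares) and other collagen-expressing cells (triangles). Imprinted growth genes lie at 2.92, 2.74 and 1.30, and immediate early genes at -1.80, -2.29 and -1.74.

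In Cxcl12-GFP P6 the rule found 46 of 7517 kept cells (0.612%, 0.448 to 0.815), and 1 with at least 5 marker UMIs per 10000. That is fewer than the 50 cells set as the minimum, so no expression comparison was made with it. The marker-dense shares were 4.42% in Cxcl12-creER P6 (3.30 to 5.79), 0.0133% in Cxcl12-GFP P6 (0.000337 to 0.0741) and 2.10% at P25 (1.75 to 2.51). Cells that met the rule had median depths of 1966.5, 11197.5 and 16192 UMIs in these libraries, so the marker-dense limit asked for fewer UMIs in Cxcl12-creER P6. Depth, allele, sorting gate and library cannot be told apart.

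Among the 56 fibroblasts, the 20 with a Pi16 UMI differed from the 36 without. Depths ran from 738 to 31361 UMIs in the 20 and from 870 to 43929 in the 36, so pooled levels lean towards the deepest barcodes of each side. All 7 barcodes of set 2 and all 3 of set 5 were among the 20. Of 1836 tested genes 123 were higher in the Pi16-positive barcodes (6.7%) and 273 lower (14.9%), and the split is by a gene of the rule, so it is a description. All 6 tested adventitial genes were higher. Ly6a stood at 1162 against 47.2 CPM (24.6-fold, 13.6 to 48.8), in 80.0% and 25.0% of barcodes. Ccn3 was 27.4-fold higher, Cd55 23.2-fold, the ferritin receptor gene Scara5 21.6-fold, the activin inhibitor gene Fst 15.8-fold, and Efemp1 14.8-fold. Single barcodes carried most UMIs of Ly6a and Ccn3 on the Pi16-positive side. For Ly6a the barcode of 31361 UMIs held 77 of 140, and for Ccn3 a single barcode held 83 of 117. Prss34 also ranked among the highest, but 79 of its 80 UMIs came from the 1 barcode with basophil proteases. The lowest were Tnmd, from the tendon-led barcodes, and Ccl7, from set 1, both with no UMI in Pi16-positive barcodes.

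Without the 6 barcodes led by another list, 19 were set against 31, with 97 of 1291 genes higher (7.51%) and 111 lower (8.6%). With each set counted once the counts were 132 (8.41%) and 261 (16.6%) of 1569, and in the marker-dense barcodes 76 (6.52%) and 101 (8.66%) of 1166. In the own-label barcodes Ly6a was 15.5-fold (8.60 to 30.7), Ccn3 17.3-fold and Cd55 14.6-fold higher, and 5 of 6 adventitial genes were higher. The lowest became Ccl7, Rgs16, Notch3, Cxcl1 and Cav1, of which Ccl7, Rgs16, Cxcl1 and Cav1 were leading genes of set 1. Set 1 had no Pi16 UMI in any of its 4 barcodes.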

How the data were processed

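The authors deposited, per the file headers and the labels, 3 matrices of raw UMI counts per gene and cell barcode from droplet 3' libraries (10x v3), made with Cell Ranger 6.0.0 (Cxcl12-creER P6) and 3.1.0 (P25) per the file headers. The submitters' processing notes name Cell Ranger, Seurat and mm10. The members and gene lists were chosen with earlier results of these data known. Barcodes were kept at 500 or more genes and at most 15% mitochondrial UMIs. Doublets were looked for with Scrublet (scanpy 1.11.5). The number of highest scores marked was set beforehand from the number of kept barcodes, and no member was among them. Since that number was preset, it does not show that the members hold no doublets. Groups were compared on summed counts as CPM, with log2 ratios on CPM plus 10, exact Poisson, conditional binomial and Clopper-Pearson intervals at 95%, and a call at 2-fold. A group is 1 library, so no test across samples was run. A fold against 0 UMIs is a lower bound at 3 counts in the group at 0. Barcodes were put in a set where their chi-square per degree of freedom averaged at most 1.2. Named genes were the markers, Cxcl12, tdTomato, the 12 highest and 8 lowest ratios with at least 10% of cells positive, and up to 5 genes of each of 22 lists, and between libraries genes that differed 4-fold or more the same way in the other collagen-expressing cells were passed over for the ranked names. Genes named for single barcodes or single sets were chosen after their values were seen. The code was tested on simulated data, and Python 3.11.15, numpy 2.4.6, pandas 2.3.3 and scipy 1.17.1 were used. Alternatives covered the marker minimum, gene, UMI and expression minimums, markers of other cells, doublets, per-cell means, clustering resolution, marker density and agreeing barcodes.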

Additional observations from a re-analysis of the deposited data

How the results depend on the processing

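None of the Cxcl12 ratios below changed direction, but the balance of higher and lower genes moved with the setting. Over the other collagen-expressing cells, 284 higher and 230 lower became 295 and 312 at 5 marker UMIs per 10000. For P6 over P25, 364 and 363 became 183 and 353 there. In addition, 2 P6 to P25 marker log2 ratios that were within 2-fold turned sign. Ly6a went from -0.15 to 0.19 at 1 marker UMI and 0.28 as means over cells. Pi16 went from 0.12 to -0.16 at 3 marker UMIs, -0.04 at 1000 genes and at 2000 UMIs, -0.97 without barcodes that had 2 UMIs of another list, -0.46 without barcodes led by another list and, past 2-fold, -1.34 at 5 marker UMIs per 10000. The number of fibroblasts was 97 at 1 marker UMI, 34 at 3, 28 at 1000 genes, 28 at 2000 UMIs and 31 with the deepest barcode of each agreeing set. The Cxcl12 level was 727 CPM without barcodes that had 2 UMIs of another list and 724 as a mean over cells. It was 776 at 5 marker UMIs per 10000 and 712 without barcodes led by another list. With the deepest barcode of each set it was 424, the 6 led by another list included. Its ratio was 2.56 without barcodes that had 2 UMIs of another list and 2.73 at 5 marker UMIs per 10000. Without barcodes led by another list it was 2.51, and 2.23 at 2000 UMIs, each over the other collagen-expressing cells. Genes lower than in those cells numbered 357 without barcodes that had 2 UMIs of another list and 358 as means over cells, and a minimum of 200 CPM and 50 UMIs gave 97 higher and 44 lower. Genes higher at P6 than at P25 numbered 158 without barcodes that had 2 UMIs of another list and 183 at 5 marker UMIs per 10000, and the 200 CPM minimum gave 131 higher and 124 lower. Between Pi16-positive and Pi16-negative barcodes the counts were 75 higher and 84 lower without barcodes that had 2 UMIs of another list, 53 and 59 at the 200 CPM minimum, 76 and 101 at 5 marker UMIs per 10000, and 111 lower without barcodes led by another list. Clustering gave 3 groups at resolution 0.5, not 5. The 200 CPM minimum tests fewer genes; for the others the cause was not tested. The alternatives on marker density, on barcodes led by another list and on agreeing sets were chosen after seeing the data. No paired analysis was possible because each group is 1 library, and no comparison with Cxcl12-GFP P6 was made, since 46 cells met the rule. Depth limits the shares: 12 of the 56 fibroblasts had fewer than 1000 UMIs.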
